A study of Mus musculus with 2 samples.

Results

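The keratins were taken as the array's non-control probes whose gene name is Krt followed by a number and at most 1 letter, with the keratin-associated protein genes left out. This gave 52 gene names on 68 probes, of 34648 gene names in all, and the brightest probe stood for each gene. They fell into 6 simple epithelial keratins (Krt7, Krt8, Krt18, Krt19, Krt20, Krt23), 4 stress keratins (Krt6a, Krt6b, Krt16, Krt17) and 42 others. The RNA came from CMT93, an established mouse carcinoma line that the labels trace to the rectum of a C57BL/ICRF animal and to an age of 19 months, with no genetic change named. Both groups were grown in DMEM. The control group was 1 sample, and the LPS group was 1 sample of the same line given lipopolysaccharide, the glycolipid of the Gram-negative outer membrane, at 3 µg/mL for 24 h. Total RNA of each was labelled with Cy3 and put on 1 one-colour Agilent array. The comparison asks which transcripts differ between LPS-treated and control cells. With 1 array a group there was no replicate and no test, and every difference is that between these arrays alone.

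Keratins are the intermediate filament proteins of epithelial cells. A filament is built from pairs of an acidic type I keratin and a basic or neutral type II keratin, so that each cell makes at least 1 member of both types. Simple epithelia such as the lining of the gut make Krt8 with Krt18 and Krt19, and differentiated colon cells add Krt20. Stratified epithelia use Krt5 with Krt14 in the basal layer and other pairs above it, wounded or stressed skin makes Krt6, Krt16 and Krt17, and hair follicles have sets of their own.

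The control array had 55.8% and the LPS array 54.7% of its 59305 non-control spots well above background, and none was saturated. The epithelial label held for 10 of 11 epithelial markers, which were above background on both arrays, Krt8, Krt18, Epcam and Cdh1 among them, while Cdx2 was above it on neither. Of the markers of other cell types, 2 of 8 for fibroblasts, 2 of 5 for endothelium and 3 of 8 on the array for leukocytes were above background on both arrays. Those on both arrays were Col1a1 and Col1a2 for fibroblasts, Kdr and Pecam1 for endothelium, and Cd3e, Cd79a and Itgam for leukocytes. Ptprc and Pdgfra passed in control cells alone, and Pdgfrb in LPS-treated cells alone. Lyz2, Tyrobp, Laptm5, Col3a1, Dcn, Lum, Thy1, Vwf, Cdh5 and Tek were among those that passed on neither. Col1a2 and Col1a1 had log2 differences of 0.91 and 0.33, and the other 5 measured markers of these types lay between 0.00 and 0.13 on their brightest probes. Itgam had 2 other probes above background on both arrays, at -0.43 and -0.22. The part of these markers in the results was not tested. In bulk RNA, fewer cells of a kind and less RNA per cell cannot be told apart.

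Promoter windows of 4 genes are shown, those of the filament pair Krt8 and Krt18 and those of Krt20 and Krt23, whose differences were the largest among the simple epithelial keratins. Each runs from 250 bases before to 50 bases after the gene start in RefSeq (GRCm38.p6), 5′ to 3′ on the gene's strand, with matches to any motif searched in capitals.
Krt8 promoter, chr15:102004293-102004592, minus strand: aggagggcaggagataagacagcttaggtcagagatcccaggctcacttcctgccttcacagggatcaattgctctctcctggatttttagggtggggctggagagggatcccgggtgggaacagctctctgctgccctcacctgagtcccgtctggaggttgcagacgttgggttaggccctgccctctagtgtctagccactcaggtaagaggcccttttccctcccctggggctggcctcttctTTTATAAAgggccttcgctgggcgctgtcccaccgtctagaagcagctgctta
Krt18 promoter, chr15:102027966-102028265, plus strand: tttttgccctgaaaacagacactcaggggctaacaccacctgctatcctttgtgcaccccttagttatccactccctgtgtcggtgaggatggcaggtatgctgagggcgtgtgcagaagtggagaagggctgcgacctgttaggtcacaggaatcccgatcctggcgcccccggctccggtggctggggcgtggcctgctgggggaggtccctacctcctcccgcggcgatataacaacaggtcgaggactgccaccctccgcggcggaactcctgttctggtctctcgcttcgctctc
Krt20 promoter, chr11:99438104-99438403, minus strand: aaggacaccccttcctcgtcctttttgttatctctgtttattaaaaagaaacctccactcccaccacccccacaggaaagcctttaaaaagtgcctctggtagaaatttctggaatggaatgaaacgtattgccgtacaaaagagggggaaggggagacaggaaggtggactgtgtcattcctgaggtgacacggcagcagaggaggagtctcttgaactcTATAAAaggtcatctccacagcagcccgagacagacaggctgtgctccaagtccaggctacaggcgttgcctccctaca
Krt23 promoter, chr11:99493071-99493370, minus strand: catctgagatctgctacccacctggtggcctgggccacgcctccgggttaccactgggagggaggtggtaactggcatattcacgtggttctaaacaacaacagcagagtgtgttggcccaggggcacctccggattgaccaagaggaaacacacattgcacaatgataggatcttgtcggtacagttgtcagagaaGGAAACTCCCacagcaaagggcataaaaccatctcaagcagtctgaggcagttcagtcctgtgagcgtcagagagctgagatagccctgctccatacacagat

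Each motif was searched on both strands. The TATA box was searched as TATAAA. The AP-1 motif was searched as TGANTCA. The GC box was searched as GGGCGG. The kappaB motif was searched as 3 G, 2 of any base, 3 T and 2 C in that order. With the gene start as 0, the Krt20 window held a TATA box at -29 to -24. The Krt8 window held one at -1 to 4, overlapped by a match on the other strand at -3 to 2. The Krt23 window held the kappaB motif on the opposite strand at -53 to -44, and the Krt18 window held none of the 4 motifs. RefSeq windows were found for 35 of the 52 keratins, 36 windows in all. Of these, 19 (52.8%) held the TATA box, against 13.6% of 32851 windows of all genes. The GC box stood in 2 of the 36 (5.6%) against 35.7% of all windows, the AP-1 motif in 2 (5.6%) against 7.8%, and the kappaB motif in 2 (5.6%) against 1.6%. These are matches of letters and show neither a site in use nor a cause.

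In the LPS-treated culture the measured keratins were mostly a little lower, and none differed 2-fold. A keratin was called measured where the extraction software flagged its probe as well above background on each array. This held for 26 of 52, while 2 passed on the control array alone and 24 on neither. Of all 34648 gene names, 20328 (58.67%) passed on both arrays and 12706 on neither. Another 946 passed on the control array alone and 668 on the LPS array alone. Of the 26, 19 (73.1%) were lower on the LPS array by any amount, against 55.5% of the 20328 gene names measured. None of the 26 was at least 2-fold higher, against 1.46% of all measured names, and none was at least 2-fold lower, against 0.571%. At 1.5-fold, 4 were lower (Krt6a, Krt6b, Krt20 and Krt23), against 2.68% of all names, and none was higher, against 3.59%. The Krt6b call rests on a probe also listed for Krt6a, and with the median or mean over probes Krt6b was at -0.45 and 3 keratins were lower by 1.5-fold. The median log2 difference, LPS minus control, was -0.19 over the 26 keratins and -0.02 over all measured names. The 5th and 95th percentiles of all names were -0.44 and 0.48, and those 4 keratins lay below that range and the other 22 within it.

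**Figure D1:**
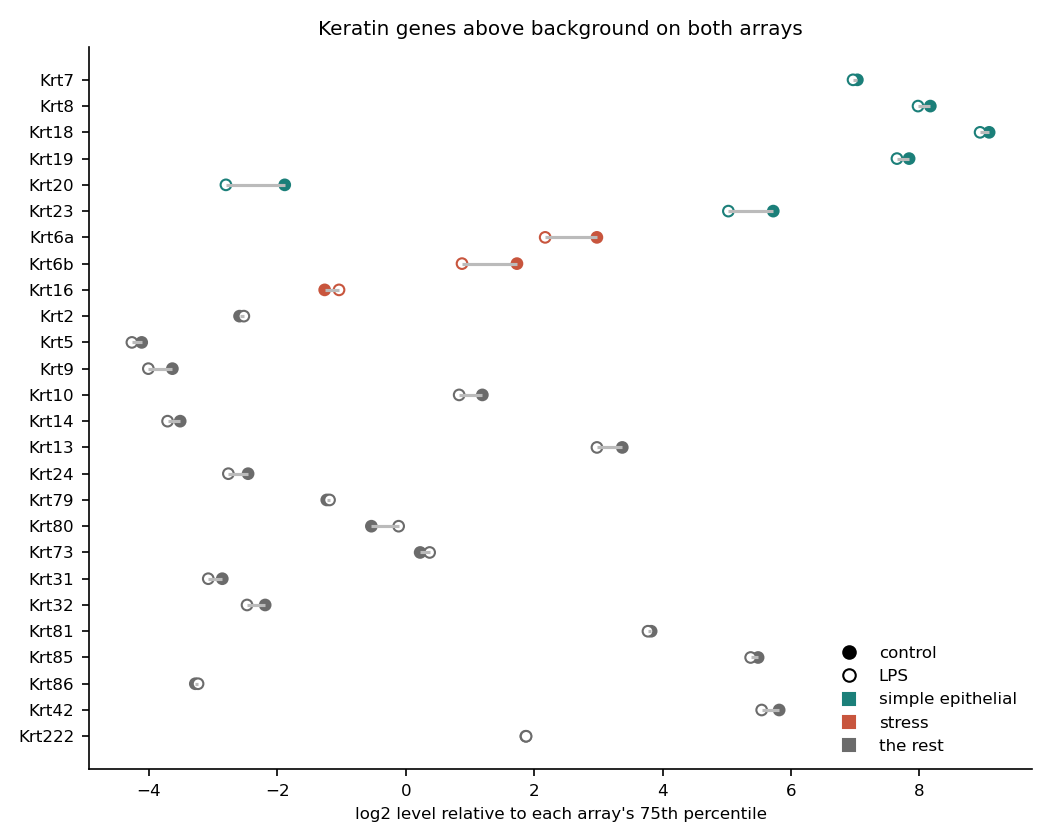
Log2 level (relative to each array's 75th percentile) of the 26 keratins above background on both arrays, control as filled and LPS as open circles, coloured by group. Levels of different probes are not on 1 scale, so each line is read on its own: the open circle lies left of the filled one in 19 of 26 genes, with the longest lines at Krt20, Krt6b, Krt6a and Krt23.

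Levels below are processed intensities, the scanner's background-subtracted brightness, and the log2 differences come after the 75th percentile of each array (651 on the control and 631 on the LPS array) was set equal. Brightness depends on the probe, so no level is compared between genes. The error after ± is the SD of the log2 difference between repeated spots, taken as the median over the 25 probes nearest in brightness among 245 that are printed 10 times. It was 0.15 for the dimmest of these and 0.027 for the brightest. It covers the slide and not the cultures, and keratins brighter than a log2 level of 6.9 lie beyond those probes.

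The simple epithelial keratins were measured for 6 of 6 members. All 6 were lower on the LPS array, against 55.5% of all measured names, with a median of -0.19. Krt8, the type II keratin of simple epithelia, had an intensity of 187535 on the control and 159204 on the LPS array. That is a log2 difference of -0.19 ± 0.03, or 87.6% of control. Its partner Krt18 had 353848 and 311100, a log2 difference of -0.14 ± 0.03. Both members of the main filament pair were thus lower on these probes. A second Krt8 probe had 87822 and 68646, a log2 difference of -0.31 ± 0.03, so the size for Krt8 depends on the probe. Both genes are brighter than the repeated spots that gave the error. Krt19, the type I keratin with almost no tail domain, had 149168 and 126819 and a log2 difference of -0.19 ± 0.03. Krt7, a type II keratin of ducts and other simple epithelia, had 85313 and 78932, a log2 difference of -0.07 ± 0.03. This was the smallest difference in the group. Of the epithelial markers above, Krt8 and Krt18 among them, all 10 measured were lower, against 55.5% of all measured names. Their median was -0.25, and Lgals4, a galectin gene of gut epithelium, was lowest at -1.45. Cdh1 was highest at -0.007 ± 0.03, within the spread of repeated spots. The part of these markers in the keratin values was not tested.

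The 2 type I keratins Krt20 and Krt23 stood apart from these in the size of the difference. Krt20, a marker of differentiated intestinal epithelium, had an intensity of 176 on the control and 90.6 on the LPS array. Its log2 difference was -0.92 ± 0.11, so the LPS level was 53.0% of control. With normexp background correction, which here added an offset of 50 to each signal, the log2 difference was -0.61. Krt23 had 34415 and 20553, a log2 difference of -0.70 ± 0.03 or 61.6% of control. These differences were 8.06 and 25.4 times the SD of repeated spots. The spread between cultures was not measured.

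The stress keratins did not differ in 1 direction. Krt6a, a type II keratin made in wounded epidermis, had an intensity of 5127 on the control and 2844 on the LPS array, a log2 difference of -0.81 ± 0.04. Krt6b, its close relative, had 2163 and 1159 on its brightest probe, a log2 difference of -0.86 ± 0.05. Krt16, a type I partner of Krt6 proteins, had 271 and 307, a log2 difference of 0.22 ± 0.08. Krt17, the other type I stress keratin, was above background on neither array, at 4.97 and 6.21. The lower values were thus the type II members and the higher one a type I member, with a median of -0.81 over 3 genes. That median was -0.45 with the median or mean over probes, -0.29 with a looser background flag or none, where Krt17 was added, and -0.045 with the dimmest probe.

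The Krt6b value rests on the choice of probe. The brightest Krt6b probe, on chromosome 15 at 101509450 to 101509509 (mm9), is listed in the array design under the transcripts of both Krt6a and Krt6b. A second Krt6b probe, listed for Krt6b alone, was dim, at 32.5 and 30.5, with a log2 difference of -0.045. The Krt6a value comes from a separate probe listed for Krt6a alone. The Krt6a and Krt6b differences may therefore not be separate measurements, and how much Krt6a transcript binds the shared probe was not tested. Its sequence is given to show which stretch was measured.
Krt6b probe shared with Krt6a: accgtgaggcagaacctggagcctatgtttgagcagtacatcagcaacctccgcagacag

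**Figure D2:**
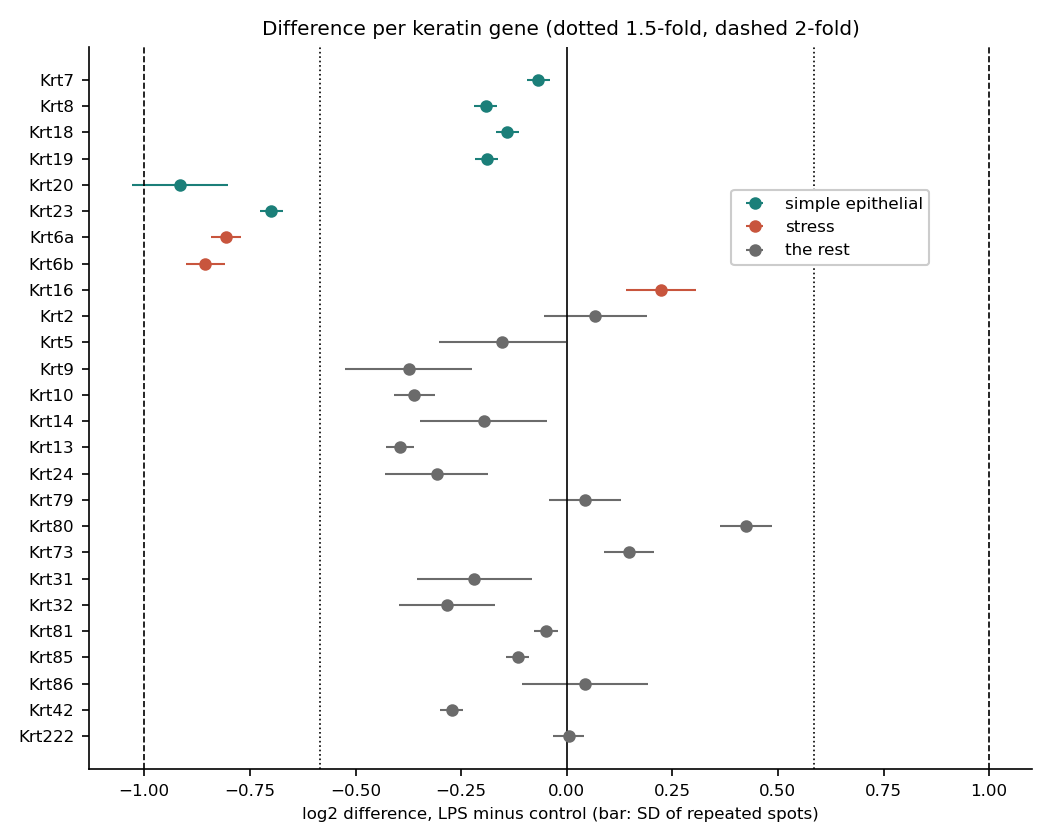
Log2 difference, LPS minus control, of the 26 measured keratins, with bars of 1 SD of repeated spots and lines at 1.5-fold and 2-fold. Krt20, Krt23, Krt6a and Krt6b lie beyond the 1.5-fold line on the lower side, no gene lies beyond it on the higher side, and no point lies beyond 2-fold.

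Among the other 42 keratins 17 were measured, 2 passed the flag in control cells alone and 23 on neither array. Of the 17, 11 (64.7%) were lower, against 55.5% of all measured names, and 6 were higher. All differed by less than 1.5-fold, with a median of -0.15. Of 8 epidermal keratins 5 were measured, and their median was -0.20. Krt10, a type I keratin of the layers above the basal one, had an intensity of 1489 on the control and 1124 on the LPS array, a log2 difference of -0.36 ± 0.05. Its second probe gave -0.19. Its type II partner Krt1 was above background on neither array, at 3.88 and 4.08. The basal pair was dim: Krt14 had 57.1 and 48.3, a log2 difference of -0.20 ± 0.15, and Krt5 had 37.7 and 32.8, one of -0.15 ± 0.15, and of -0.67 on its other probe. Krt9, a keratin of palms and soles, had 52.4 and 39.2 and a log2 difference of -0.37 ± 0.15. With normexp and its offset of 50 that difference was -0.16. Krt2, of the upper epidermis, had 108 and 110, a log2 difference of 0.07 ± 0.12 that lies within the spread of repeated spots.

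Krt15, a type I keratin of basal cells and hair follicle stem cells, passed the flag in control cells alone, with 36.8 against 17.7. In LPS-treated cells it was 2.01-fold lower. For genes passing on 1 array alone a bound was taken. Its other side was the probe's own signal there or the lowest signal passing the flag on that array, whichever was greater. For Krt15 its own signal was above that lowest signal of 16.9, so the bound equals the difference itself and is not a minimum. The SD of repeated spots at this brightness was 0.15. With normexp and its offset of 50 this bound was 0.28 on the log2 scale in place of 1.01. With the background-subtracted signal floored at 1 it was 0.99. The probe of Krt28, an inner root sheath keratin, also passed in control cells alone, at 18.6, with a bound of only 1.06-fold. Both genes were near the detection limit.

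Of 8 mucosal and corneal keratins 4 were measured, 2 lower and 2 higher. Krt13, the type I keratin of mouth and oesophagus lining, had 6744 on the control and 4973 on the LPS array, a log2 difference of -0.39 ± 0.03. Krt24, a type I keratin, had 119 and 93.0, one of -0.31 ± 0.12. Krt80, a type II keratin of differentiating epithelia, had 449 and 585, a log2 difference of 0.42 ± 0.06. This was the highest value among the 26 measured keratins, at 134% of control. Krt79, a type II keratin, had 278 and 277 and a log2 difference of 0.04 ± 0.09, within the spread of repeated spots. Krt4, the type II partner of Krt13, was above background on neither array, at 4.06 and 3.6.

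Of 9 inner root sheath keratins only Krt73 was measured, with 761 on the control and 817 on the LPS array and a log2 difference of 0.15 ± 0.06. Of 15 hair keratins 5 were measured, 4 of them lower (80.0%, against 55.5% of all measured names), with a median of -0.12. Krt32 had 143 and 114, a log2 difference of -0.28 ± 0.11, and Krt31 had 89.9 and 74.9, one of -0.22 ± 0.14. Both are type I keratins of the hair shaft. Among the type II hair keratins, Krt81 had 9211 and 8626, a log2 difference of -0.05 ± 0.03, and Krt86 had 67.2 and 67.1, one of 0.04 ± 0.15. Krt85 had 29222 and 26133 on its brightest probe, a log2 difference of -0.12 ± 0.03, against 0.52 ± 0.08 on another. Outside these sets, Krt42, a type I keratin of rodents, had 36679 and 29442, a log2 difference of -0.27 ± 0.03, and the keratin-related gene Krt222 had 2381 and 2315, one of 0.00 ± 0.04 whose sign changed with the scaling.

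The members above background on neither array were Krt17 and 23 others, namely Krt1, Krt4, Krt12, Krt25, Krt26, Krt27, Krt33a, Krt33b, Krt34, Krt35, Krt36, Krt39, Krt40, Krt71, Krt72, Krt74, Krt75, Krt76, Krt77, Krt78, Krt82, Krt83 and Krt84. Most belong to hair, the inner root sheath or stratified epithelia. An intensity below the background flag is only a limit on the level, and no difference is given for them.

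By type, 14 of 28 type I and 12 of 24 type II keratins were measured. Of the type I keratins 12 of 14 (85.7%) were lower, with a median of -0.28. Of the type II keratins 7 of 12 (58.3%) were, with a median of -0.06. Over all measured names 55.5% were lower. The difference between the types was not tested. In the mm9 coordinates of the files, the probes of 27 type I keratins lay on chromosome 11 between 99095480 and 100128311, 13 of them measured. Those of 23 type II keratins lay on chromosome 15 between 101180014 and 101827197, 11 of them measured. The brightest Krt85 probe has no position in the file. Krt18 is the type I keratin that lay apart from its type, on chromosome 15 at 101862341 to 101862400, beside the type II cluster and nearest to its partner Krt8 at 101827138 to 101827197. Whether the probes lie in exons or introns was not analysed here.

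The 14 keratins with several probes show how far a value depends on the probe. In 6 of them the probes differed in the background flag, and in 5 several probes were above background on both arrays. The probes of Krt8 gave -0.31 and -0.19, those of Krt10 gave -0.36 and -0.19, and those of Krt5 gave -0.67 and -0.15. These pairs shared a sign. For Krt42 the probe listed at base 20 was above background on neither array at 3.35 and 3.53, while the probe at base 639 gave the value above. On this minus strand the first, at 100127213 to 100127272, lies downstream of the second, at 100128252 to 100128311. Their base counts are therefore not of the same transcript model. For Krt13 the probe at base 885 was above background on neither array, at 9.96 and 3.38, while that at base 279 was above it on both. Krt2 and Krt222 likewise had 1 probe above background on both arrays and 1 on neither.

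For Krt85 the probes disagreed in direction. The brightest probe had -0.12, the one at base 2534, with intensities of 280 and 391, had 0.52, and the one at base 2081 was above background on neither array. The second lies on chromosome 15 at 101346117 to 101346176 and the third at 101261695 to 101261754, nearer to the Krt83 probe at 101263556 to 101263615.

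The Krt83 probe, of another type II hair keratin, was above background on neither array, at 15.5 and 5.49. The design lists the Krt81 probe also under transcripts that RefSeq names Krt83 and Krt86, and the Krt83 probe under a transcript that RefSeq now names Krt87. Values of Krt81 and Krt83 are therefore uncertain between relatives, and binding across genes was not tested.

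Among type I keratins, the bright Krt42 probe and the Krt24 probe share an 18-base stretch, in capitals, that differs at 2 bases and stood in no other probe of the array. The stretch was taken from these 2 probes. Each probe covers only 60 bases, so other keratin transcripts may hold it, and binding across genes was not tested.
Krt42 probe: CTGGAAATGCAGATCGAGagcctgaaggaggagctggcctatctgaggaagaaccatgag
Krt24 probe: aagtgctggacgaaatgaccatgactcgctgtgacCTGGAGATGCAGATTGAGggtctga

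The Krt222 probe above background holds a run of 22 bases of alternating A and C, shown in capitals within bases 19 to 48 of the probe.
Krt222 probe, middle part: tgtACACACACACACACACACACACccgga

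Another 25 probes, of 25 other gene names, share at least 20 bases in a row with it. All 5 distinct shared stretches of 20 bases hold part of this repeat, and some run into the bases beside it. All 25 were above background on both arrays, with log2 differences between -0.14 and 0.18 and a median of 0.06. The other Krt222 probe, at base 2439, was above background on neither array, at 3.72 and 3.89. What transcript the repeat probe binds was not tested.

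**Figure D3:**
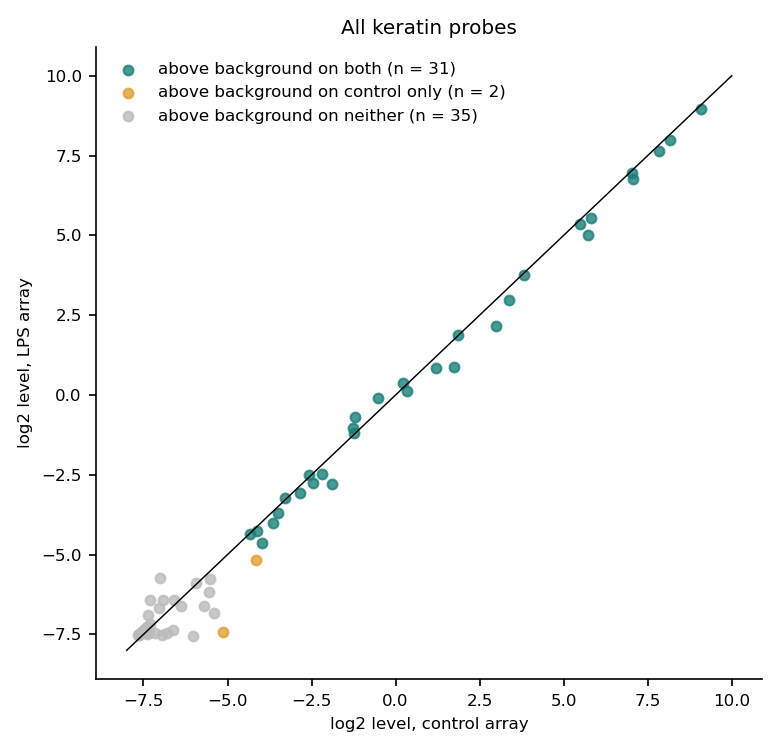
Log2 level on the LPS array against that on the control array for all 68 keratin probes, coloured by whether the probe was well above background, with the line of equal level. Of the 31 probes above background on both arrays 23 lie below the line, 2 passed the flag on the control array alone, and 35 on neither.

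Genes that work with keratins were set beside them in 4 lists. Of 16 other intermediate filament genes 8 were measured, with a median of -0.06. At 1.5-fold 1 was higher, against 3.59% of all measured names, and none was lower, against 2.68%. Sync, which encodes a filament-linking protein of muscle, was highest at 1.43 ± 0.15 from a dim probe, and the nuclear lamin gene Lmna followed at -0.03 ± 0.03. Nes and Vim, which encode the filament proteins nestin and vimentin, were lowest at -0.48 ± 0.03 and -0.43 ± 0.03. Vimentin is often high where epithelial cells take on mesenchymal traits. The Vim value lay within the 5th to 95th percentile of all measured names, -0.44 to 0.48, and such traits were not tested.

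Of 24 genes of desmosomes, hemidesmosomes and keratin linkers 19 were measured, with a median of -0.07. At 1.5-fold none was higher, against 3.59% of all measured names, and 2 were lower, against 2.68%. Itga6, an integrin subunit gene of the hemidesmosome, was lowest at -0.64 ± 0.04, and at -0.28 on its other probe. Eppk1, which encodes the keratin-binding plakin epiplakin, was at -0.62 ± 0.04, and at -0.65 on its other probe. Col17a1 and Pkp1, which encode a hemidesmosome collagen and the desmosomal plakophilin 1, were highest at 0.40 ± 0.15 and 0.37 ± 0.03.

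Genes of the cornified envelope, the protein shell of dead skin cells, differed in both directions. Of 20, 11 were measured, 7 of them above 0 and 4 below (36.4%, against 55.5% of all measured names), with a median of 0.69. At 1.5-fold 6 were higher, against 3.59% of all measured names, and 2 lower, against 2.68%. Lor, which encodes loricrin, stood at 1.85 ± 0.03 and Cnfn, which encodes cornifelin, at 1.19 ± 0.15. Tgm5, a transglutaminase gene, and Casp14, a caspase gene of skin, were lowest at -0.75 ± 0.12 and -0.68 ± 0.13. Tchh, the trichohyalin gene, passed the flag in control cells alone and was at least 2.15-fold lower in LPS-treated cells. The difference between this list and the keratins was not tested.

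Of 20 transcription factor genes with a known link to keratin genes 17 were measured, with a median of 0.08. At 1.5-fold 2 were higher, against 3.59% of all measured names, and none was lower, against 2.68%. Cebpb and Elf3 were highest at 0.90 ± 0.03 and 0.70 ± 0.04. Grhl3 and Fosl1 were lowest at -0.49 ± 0.05 and -0.42 ± 0.08. Trp63, the master factor of stratified epithelium, stood at -0.02 ± 0.04.

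**Figure D4:**
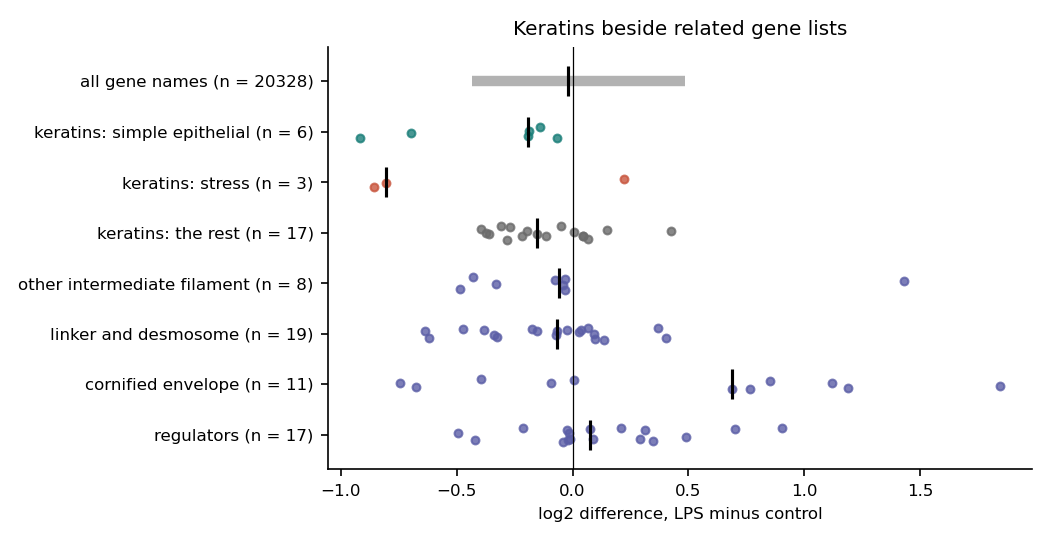
Log2 difference, LPS minus control, of each measured gene in the keratin groups and the 4 related lists, with the median as a bar; the grey band is the 5th to 95th percentile of all 20328 measured gene names. The medians are -0.19 for simple epithelial, -0.81 for stress and -0.15 for other keratins, and 0.69 for the cornified envelope list.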

How the data were processed

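Total RNA of 1 control and 1 LPS-treated CMT93 culture was measured on 2 one-colour arrays read in 1 scan, and the sample titles gave the groups. The treatment text is on both samples, and its dose and time were taken for the LPS sample alone. Per the file headers, each deposited intensity is a processed signal of Feature Extraction 10.10.1.1, from which the software had taken the background and a spatial trend.

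Control spots and 223 flagged spots, none of them of a keratin, were left out. The log2 of the processed intensity minus each array's 75th percentile was averaged over the spots of a 60-base probe, and a gene took its brightest probe. RefSeq accessions matched 62 of 68 keratin probes and changed 1 symbol. With 1 array a group no test was run; the number of arrays limits the precision. Steps were tested on simulated data. All members were accounted for, all measured ones named, and of each related list the 2 highest and 2 lowest named by rule; Tchh, Trp63 and the marker genes were named after their values were seen, and some markers are not reported here. Members and lists were chosen with earlier results of these data known. Alternatives used R 4.3.3 with limma 3.58.1, and other steps Python 3.11.15 with pandas 2.3.3, numpy 2.4.6 and matplotlib 3.10.9.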

Additional observations from a re-analysis of the deposited data

How the results depend on the processing

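No paired analysis was possible because each group has 1 array. Of 11 alternatives, using the dimmest probe was chosen after seeing the data. Over them, 24 of the 26 measured keratins kept their sign in every alternative that gave a value. The exceptions were Krt222 and Krt85, which was at 0.52 with the median and 0.20 with the mean over probes. Of 277 values of single genes, 24 moved by more than the SD of repeated spots. Without the background filter all 52 keratins counted, 30 were lower, 11 and 2 were at least 1.5-fold lower and higher, and 3 and 1 at 2-fold. Of all 34648 names without it, 2459 and 2551 were at least 1.5-fold lower and higher, and 1174 and 1358 at 2-fold. With the looser flag 36 keratins counted, 9 and 1 were at least 1.5-fold lower and higher, and 2 and 1 at 2-fold. Of 24562 names with that flag, 1526 and 1623 were at least 1.5-fold lower and higher, and 553 and 744 at 2-fold. These filters add dim probes. The simple epithelial median of -0.19 was -0.24 with quantile normalization, -0.22 with the median or mean over probes and -0.25 with the dimmest probe. Krt6b was no longer 1.5-fold lower with the median or mean over probes (-0.45) or the dimmest probe (-0.045). The stress median of -0.81 was -0.45 with the median or mean over probes, -0.045 with the dimmest probe, and -0.29 with the looser flag or no filter, where Krt17 was added. The bound for Krt28 was 2.31 on the log2 scale with the looser flag, and there was none with the signal floored at 1. The cause of these shifts was not tested. Other keratin counts stayed within 1.5 times. The counts over all measured names did not. With normexp and its offset of 50, 198 and 451 of 20328 names were at least 1.5-fold lower and higher, against 545 and 729. At 2-fold they were 37 and 170, against 116 and 296, so the shares of all names given above depend on this setting. Signal over background limits the 26 keratins not measured on both arrays.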

Other observations

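Array names outside the rule that RefSeq now names as keratins were 1700011A15Rik (Krt88) and 4732456N10Rik (Krt90). The first was above background on both arrays, with log2 levels of -2.97 on the control and -2.52 on the LPS array and a log2 difference of 0.45. The second was above background on neither. Both were singled out after their values were seen.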
